A study of Mus musculus with 24 samples.

Results

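The 8 genes of the S100 family of calcium-binding proteins in the expression table were followed across 8 lines of B16-F10, a mouse melanoma cell line derived from a C57BL/6 tumour. The members are S100a1, S100a4, S100a6, S100a10, S100a11, S100a13, S100a16 and S100b, taken by symbol, and they are 8 of the 12010 genes in the table. The family was picked because S100a4 was the largest rise in the TFEB KO among genes with more than 3 reads in a parental library (second without that filter), so it was chosen by the measured S100a4 values of the TFEB KO and parental libraries. Values of S100a4 in those libraries, and of every member in the TFEB KO against the parental cells, are therefore given as descriptions with no test. Another 10 family symbols that were looked for, among them S100a8, S100a9 and S100a14, are not in the table.

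The study asked what is lost when the related transcription factors MITF, TFEB and TFE3 are removed from melanoma cells, alone and together. All 8 lines carry the luciferase reporter luc2 and were grown in DMEM with serum. They are the parental B16F10-luc2 cells (labelled WT), the MITF KO, the TFEB KO and the TFE3 KO, the TFEB/TFE3, MITF/TFE3 and MITF/TFEB double KOs (DKO) and the triple KO (TKO), with 3 libraries each. The lines lacking TFEB or TFE3 are clones isolated after CRISPR-Cas9 editing of the parental cells or of the MITF KO cells, a line made earlier, so the 4 lines without MITF share that ancestor, and loss of MITF cannot be told apart from other features of the shared MITF KO line. The MITF KO carries a frameshift, and the study notes that it may still make a little truncated MITF. Nothing in the labels says whether the 3 libraries of a line came from separate cultures, so p-values measure the spread between these libraries, which may be technical. No genotype has a further clone here, so the p-values do not measure the spread between clones. Within a comparison, loss of TFEB or TFE3 cannot be told apart from other features of the clone. The sources used here do not say whether the DKO and TKO lines were made from clones with fewer KOs. Lines lacking the same factor may therefore share a clone of origin.

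S100 proteins are small, mostly dimeric proteins found in vertebrates, each with a pair of EF-hand motifs, which in most members bind calcium. On binding it most of them open a surface that docks onto a partner, such as an annexin, a myosin or a kinase, and several are also released from cells and act on receptors. S100B is a long-used tissue and serum marker of melanoma and of other cells of neural crest origin, and S100A4 is known as metastasin for its association with tumour spread. MITF, TFEB and TFE3 bind as dimers to E-box motifs with the core CACGTG or CATGTG. MITF drives pigment cell genes, whereas TFEB and TFE3 are best known for lysosomal and autophagy genes.

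Messenger RNA was measured by QuantSeq, which reads from the 3′ end of polyadenylated transcripts so that read numbers do not scale with transcript length. The values are CPM (the reads of a gene relative to all reads on genes), scaled by the authors with TMM factors. Libraries held 18300902 to 26667877 reads on genes, and a member held 311 reads (S100a16) to 52269 reads (S100b) in a library. Tfeb lay at 2.06 to 5.27 CPM in the 12 libraries without TFEB and at 7.87 to 22.7 CPM in the 12 with it, and Tfe3 at 8.01 to 21.7 CPM without TFE3 and 31.1 to 62.5 CPM with it. Mitf transcript lay at 326 to 1470 CPM without MITF and 646 to 903 CPM with it, so its level is no check of that label. All 6 melanocyte lineage markers were present, with a summed level of 25300 to 39000 CPM in 6 lines and of 15500 to 19000 CPM in the remaining pair, the MITF/TFEB DKO and TKO. Most of this sum was Dct, at 17750 CPM in the parental cells and 13040 CPM in the TKO, so it says little of the other markers.

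Of the members, 7 lie on chromosome 3, where S100 genes form a cluster, and S100b lies on chromosome 10. In GENCODE's annotation of GRCm39, S100a13 (chr3:90416091-90431912, plus strand), S100a1 (chr3:90418340-90421848, minus strand, inside the span of S100a13), S100a16 (chr3:90444172-90450462), S100a4 (chr3:90511074-90513354) and S100a6 (chr3:90520140-90535843) follow one another within 120 kb. The start of S100a6 is 6.79 kb beyond the end of S100a4. S100a11 (chr3:93414382-93435293) and S100a10 (chr3:93462213-93474510) begin 2879 kb further on, and S100b is at chr10:76085090-76097159 on the plus strand. The 3′ end of S100a4 overlaps an annotated gene on the same strand, Gm42674, which is not in the table and shares 56.1% of the 50-base stretches at that end. Reads of these genes cannot be told apart there. The 3′ end of S100a1 overlaps S100a13 and the lncRNA Gm56783, both on the opposite strand, and the strand setting of the counting is not given in the sources used here. The other 6 members had no such overlap and shared no 50-base stretch of the 3′ end with another annotated gene.

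The promoter windows of S100a4, S100a6 and S100a11 are shown because these genes had the largest rises on loss of TFEB. They run from 250 bases before to 50 bases after the RefSeq start on GRCm38.p6, at chr3:90603520-90603819, chr3:90612644-90612943 and chr3:93520246-93520545, all on the plus strand. Capitals mark the letters CACGTG, which read the same on both strands.
S100a4: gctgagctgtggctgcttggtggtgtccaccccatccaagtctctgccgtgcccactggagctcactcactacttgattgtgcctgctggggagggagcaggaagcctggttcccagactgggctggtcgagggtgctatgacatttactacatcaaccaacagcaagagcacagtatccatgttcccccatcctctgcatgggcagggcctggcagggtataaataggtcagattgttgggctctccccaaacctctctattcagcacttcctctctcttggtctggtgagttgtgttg
S100a6: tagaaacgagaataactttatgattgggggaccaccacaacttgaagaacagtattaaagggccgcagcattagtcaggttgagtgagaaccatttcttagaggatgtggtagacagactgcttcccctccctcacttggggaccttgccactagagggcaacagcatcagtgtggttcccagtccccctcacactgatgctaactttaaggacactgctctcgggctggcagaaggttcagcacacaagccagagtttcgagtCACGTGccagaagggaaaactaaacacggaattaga
S100a11: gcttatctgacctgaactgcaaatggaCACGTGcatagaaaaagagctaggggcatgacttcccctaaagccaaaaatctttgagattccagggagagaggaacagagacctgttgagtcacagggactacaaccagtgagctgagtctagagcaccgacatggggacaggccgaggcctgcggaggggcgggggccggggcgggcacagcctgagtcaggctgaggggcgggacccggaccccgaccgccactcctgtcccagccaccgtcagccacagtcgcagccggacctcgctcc
CACGTG was present in the windows of S100a6, 15 bases after the start, and of S100a11, 223 bases before it, and 10.1% of the 12312 windows of table genes hold it. The letters CATGTG, searched on both strands, were found in a window of S100a16, 240 bases before the start, and in 8.38% of all windows. The window of S100a4 held neither. With GENCODE canonical starts on GRCm39, CACGTG was found only in the window of S100a11, 236 and 97 bases before the start. CATGTG was found in the window of no member. The matches in S100a6 and S100a16 thus depend on which start is used. RefSeq windows were matched for 7 members, and S100a10 had none. A match is a description of letters and not of binding, and no match says only that these letters are not in this window.

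The 8 members fell into 4 patterns over the lines. S100a4 and S100a6 were high in the lines without TFEB, S100a13, S100a16 and S100b were high in the lines without MITF, S100a10 and S100a11 were high where MITF and TFEB were both missing, and S100a1 followed none of these. The patterns overlap, as S100a4 and S100a6 were also highest in the MITF/TFEB DKO and TKO. Mean S100a4 was higher without MITF as well, at 72.2 CPM in the MITF KO against 37.8 CPM in the parental cells. It was at 91.2 CPM in the MITF/TFE3 DKO against 33.5 CPM in the TFE3 KO. The MITF/TFEB DKO had 475.9 CPM against 139.3 CPM in the TFEB KO, and the TKO 462.7 CPM against 201.7 CPM in the TFEB/TFE3 DKO. The mean level of S100a4 varied 14.2-fold between the lowest and the highest line, S100a6 10.6-fold, S100b 7.97-fold, S100a11 6.6-fold, S100a16 6.04-fold, S100a13 4.8-fold, S100a10 2.92-fold and S100a1 2.42-fold. Across the 8 line means, which share libraries and a common normalization, Pearson's r on the log2 scale was 0.935 for S100a4 with S100a6, 0.955 for S100a10 with S100a11, 0.957 for S100a13 with S100b and 0.904 for S100a13 with S100a16. For S100a16 with S100b it was 0.874, and for S100a1 it lay between -0.432 and 0.429 with the other members. Between members of different patterns, S100a1 aside, r ran from 0.203 (S100a6 with S100a16) to 0.861 (S100a4 with S100a11). It was 0.840 for S100a6 with S100a11. The patterns were read from these same line means and are not supported by the correlations. These correlations describe 8 points and carry no test. In bulk samples like these, fewer cells with a transcript and less of it per cell cannot be told apart.

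**Figure D1:**
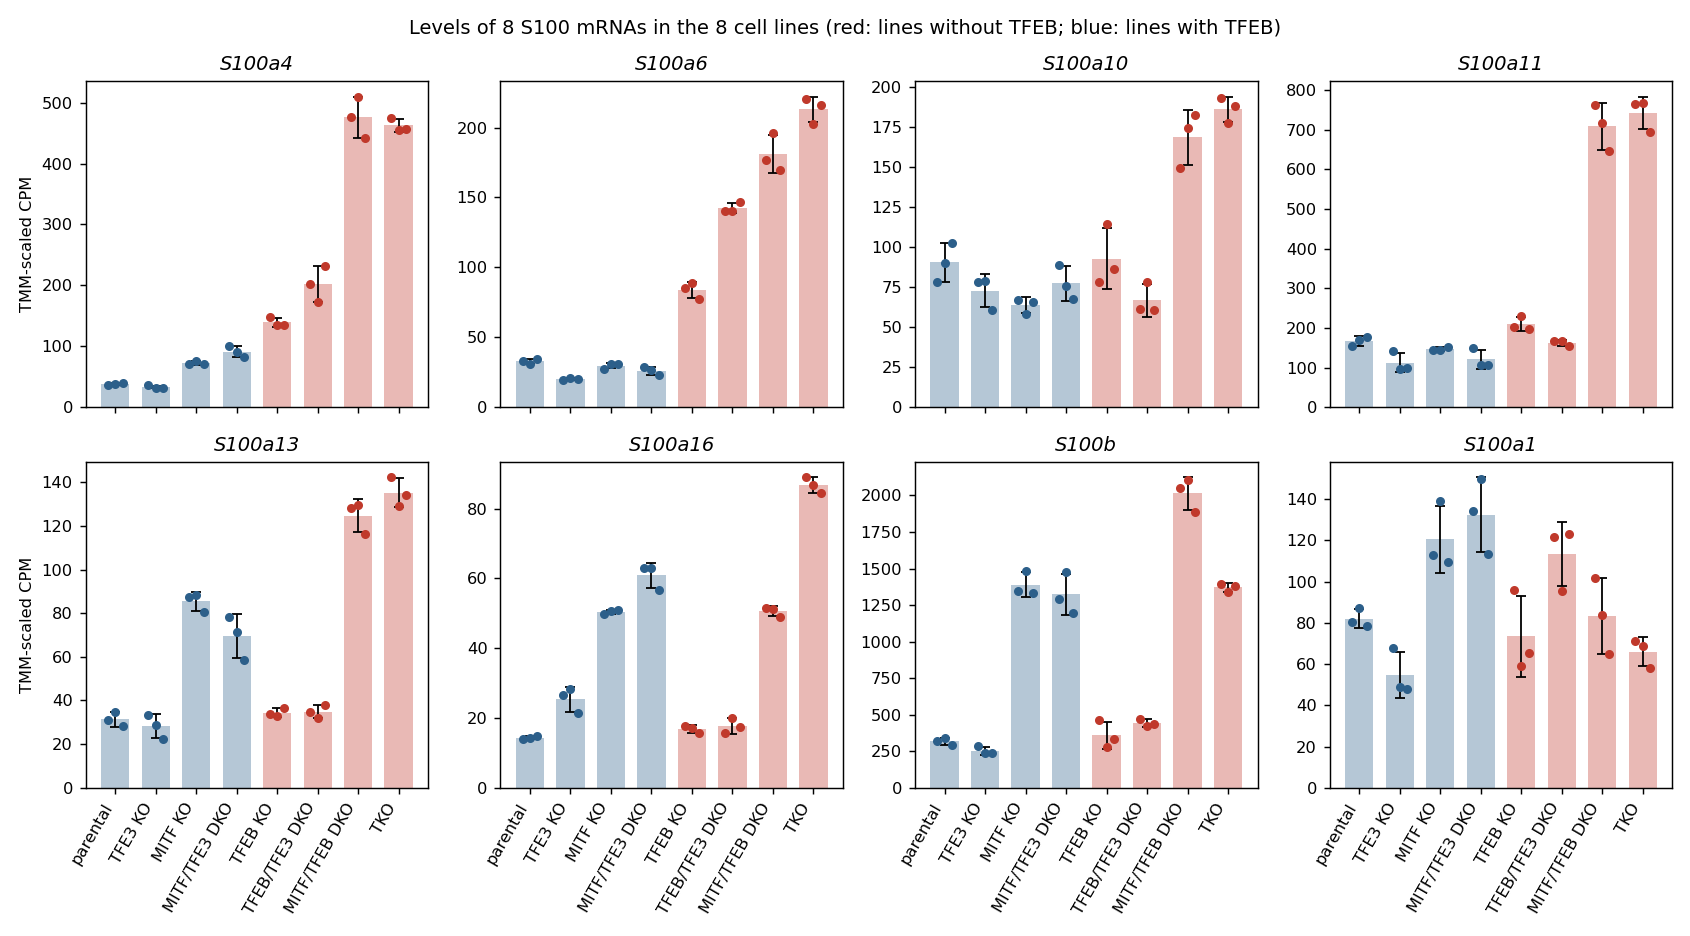
Level of each S100 mRNA in TMM-scaled CPM on linear axes from 0, for the 8 lines on the x axis. Bars give the mean of 3 libraries, error bars the SD and points the libraries; red marks lines without TFEB and blue lines with it. S100a4 and S100a6 are high in the 4 red lines, S100a10 and S100a11 in the MITF/TFEB DKO and TKO, and S100a13, S100a16 and S100b in the 4 lines without MITF.

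S100a4, or metastasin, binds the heavy chain of non-muscle myosin IIA and is linked to cell motility. In the lines with TFEB, S100a4 was at 36.7, 37.5 and 39.1 CPM in the 3 parental libraries, at 35.9, 32.3 and 32.3 CPM in the TFE3 KO, at 70.6, 75.5 and 70.6 CPM in the MITF KO and, for the MITF/TFE3 DKO, at 100.4, 91.2 and 82.0 CPM. In the lines without it, S100a4 was at 147.7, 135.4 and 134.7 CPM in the TFEB KO, at 201.5, 172.3 and 231.2 CPM in the TFEB/TFE3 DKO, at 476.8, 509.6 and 441.4 CPM where MITF was missing too (MITF/TFEB DKO) and at 475.6, 455.7 and 456.9 CPM in TKO libraries. Every library without TFEB was thus above every library with it, and the lines kept an order in which only the MITF/TFEB DKO and the TKO overlapped. In the TFEB KO, S100a4 was 3.61-fold above the parental cells, a log2 difference of 1.85 on the log2(CPM + 1) scale used for all differences here. It was the largest of 21 rises past the threshold with an adjusted p under 0.05 and more than 3 reads in a parental library. Bmyc, next below S100a4, rose by 1.74. This contrast chose the gene, so passing these limits is part of the choice, and S100a4 is not tested in it.

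The libraries that the choice did not use are the TFE3 KO, the MITF KO and the 4 lines that lack several factors. Among these, S100a4 lay at 172.3 to 509.6 CPM in the 9 libraries without TFEB and at 32.3 to 100.4 CPM in the 9 with it. Loss of TFEB raised S100a4 by 2.55 ± 0.09 (log2, SE) in cells lacking TFE3, by 2.702 ± 0.09 in cells lacking MITF and by 2.34 ± 0.09 in cells lacking both, which is 5.84-fold, 6.51-fold and 5.05-fold (limma, 3 libraries a line, adjusted p = 3.3e-15, 4.1e-17 and 1e-15). These 3 comparisons share no library, but the lines without TFEB may share a clone of origin, so the comparisons may not be independent. The rise in cells lacking TFE3 was 0.21 smaller without MITF than with it, a difference that did not pass the threshold (adjusted p = 0.2); without TFEB/TFE3 DKO replicate 2 it was -0.32 and passed (adjusted p = 0.038).

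S100a6, or calcyclin, binds calcyclin-binding protein and annexins and is common in proliferating cells. S100a6 was at 32.8, 31.1 and 34.5 CPM in the parental libraries, at 19.4, 21.2 and 19.8 CPM in the TFE3 KO, at 27.5, 31.2 and 30.7 CPM in the MITF KO and, for the MITF/TFE3 DKO, at 28.5, 26.4 and 22.8 CPM. Without TFEB, S100a6 was at 85.2, 88.5 and 77.2 CPM in the TFEB KO, at 140.1, 140.1 and 146.6 CPM in the TFEB/TFE3 DKO, at 177.1, 196.3 and 169.5 CPM in libraries of the MITF/TFEB DKO and at 220.2, 202.6 and 216.0 CPM in those of the TKO. Again every library without TFEB lay above every library with it. In the TFEB KO, S100a6 was 2.50-fold above the parental cells, a value from the contrast that chose the family. Elsewhere loss of TFEB raised S100a6 by 2.76 ± 0.09 in cells lacking TFE3, by 2.56 ± 0.09 in cells lacking MITF and by 2.995 ± 0.09 in cells lacking both (limma adjusted p = 4.1e-16, 3.7e-17 and 2.9e-18). The MITF KO differed from the parental cells by -0.14 ± 0.09 (adjusted p = 0.23), while in cells lacking TFEB, loss of MITF raised S100a6 by 1.10 ± 0.09 (adjusted p = 2.2e-10). On loss of MITF the difference was 0.34 in cells lacking TFE3 and 0.58 in cells lacking TFEB and TFE3, short of 2-fold.

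Of the 12010 genes, 11 had all 12 libraries without TFEB above all 12 with it, or 0.0916%, and S100a4 and S100a6 are among them. The others are Rnf149, Ackr3, Hmgcs1, Plec, Galnt6, Eif4g1, Apbb1ip, Adamtsl1 and Srgap3. The parental and TFEB KO libraries that chose S100a4 enter this count, so it is a description. Another 9 genes, or 0.0749%, lay wholly below, none of them a member.

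**Figure D2:**
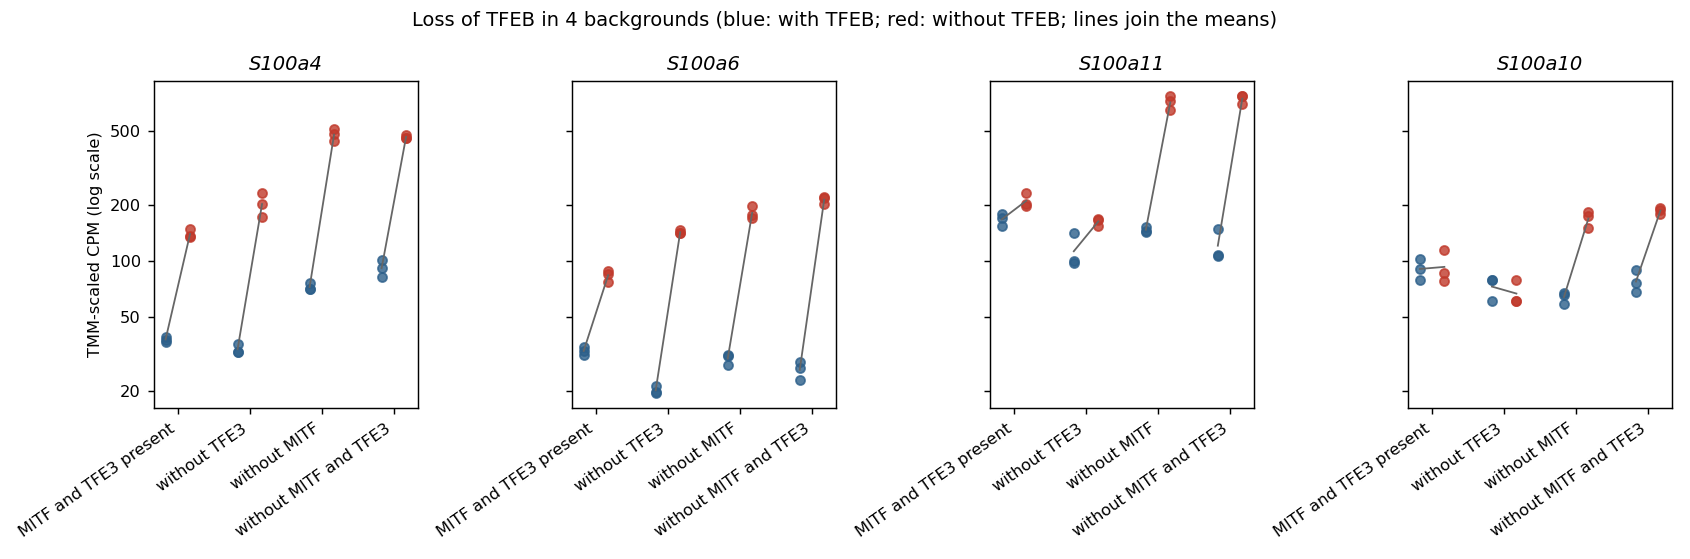
S100a4, S100a6, S100a11 and S100a10 in TMM-scaled CPM on a log axis, with TFEB (blue) and without it (red), in the 4 backgrounds on the x axis; points are the 3 libraries of a line and grey lines join the means. S100a4 and S100a6 rise in every background, whereas S100a11 and S100a10 rise past 2-fold only in the cells without MITF.

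S100a11 and S100a10 are annexin partners: S100A11 binds annexin A1, and S100A10, which has lost calcium binding, forms a tetramer with annexin A2 at the plasma membrane. S100a11 was at 154.5, 168.8 and 177.3 CPM in the parental libraries, at 143.2, 144.9 and 152.0 CPM in the MITF KO and at 201.6, 230.3 and 198.0 CPM in the TFEB KO. Its MITF/TFEB DKO libraries reached 762.4, 718.0 and 645.6 CPM and its TKO libraries 764.5, 767.9 and 694.3 CPM, and the other 3 lines lay between 96.8 and 168.2 CPM. The 6 libraries without MITF and TFEB were thus far above the other 18, with no overlap. On loss of TFEB, S100a11 rose by 2.26 ± 0.13 in cells lacking MITF and by 2.63 ± 0.13 in cells lacking MITF and TFE3 (limma adjusted p = 5.2e-13 and 3.5e-14). In cells lacking only TFE3 the difference was 0.55 ± 0.13, or 1.46-fold, which is short of the 2-fold threshold (adjusted p = 0.0027). The difference between these responses with and without MITF, in cells lacking TFE3, was 2.08 ± 0.18 (limma interaction, adjusted p = 2.1e-09).

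S100a10 showed the same outline at lower levels. It was at 78.4, 89.9 and 102.8 CPM in the parental libraries, at 149.4, 174.1 and 182.2 CPM in libraries of the MITF/TFEB DKO and at 192.8, 177.3 and 188.0 CPM in TKO libraries, and the other 5 lines lay between 58.4 and 114.1 CPM. No library of the MITF/TFEB DKO or TKO overlapped the rest. Loss of TFEB raised S100a10 by 1.39 ± 0.14 in cells lacking MITF and by 1.26 ± 0.14 in cells lacking MITF and TFE3 (limma adjusted p = 2.5e-08 and 9.3e-08), against -0.12 ± 0.14 in cells lacking TFE3 (adjusted p = 0.54). The interaction with MITF was 1.39 ± 0.20 (adjusted p = 5.9e-06). Against the parental cells S100a10 passed the 2-fold threshold in the TKO, at 2.06-fold, and not in the MITF/TFEB DKO, at 1.86-fold. The call in the TKO was lost, at 0.94 on the log2 scale, without parental replicate 1. In cells lacking TFEB, loss of MITF raised it by 0.87 ± 0.14, or 1.83-fold, and by 1.03, past 2-fold, without TFEB KO replicate 2.

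Counted over the members, 3 of 8 were called higher on loss of TFEB in cells lacking TFE3 (S100a4, S100a6 and S100a1), where 1.7% of all genes were. In cells lacking MITF, 4 of 8 were called (S100a4, S100a6, S100a10 and S100a11), where 6.91% of all genes were. The same 4 symbols were called in cells lacking MITF and TFE3, where 5.69% of all genes were. Without S100a4, the counts called higher were 2, 3 and 3 of 7, in the same order. The median log2 difference of the 8 members was 0.68, 0.96 and 1.11 in these comparisons, and 0.55, 0.54 and 0.96 over the 7 members other than S100a4, whose TFEB response chose the family, beside 0.00, 0.02 and 0.01 over all genes. No member was called lower by limma, where 1.17%, 3.99% and 5.75% of all genes were, while 1 member in each comparison was lower at an unadjusted p under 0.05: S100a16 in cells lacking TFE3, at -0.49, and S100a1 in the other two, at -0.54 and -0.99. The last of these, S100a1 in the TKO against the MITF/TFE3 DKO, was called lower by edgeR on whole reads.

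S100b, the melanoma marker, was the most abundant member by CPM in every line, a comparison that holds for 3′ end reads. S100b was at 316.4, 337.7 and 295.3 CPM in the parental libraries and at 1344, 1486 and 1334 CPM in the MITF KO. MITF/TFE3 DKO libraries held 1292, 1476 and 1199 CPM, MITF/TFEB DKO libraries 2049, 2104 and 1890 CPM and TKO libraries 1394, 1338 and 1381 CPM. The 12 libraries without MITF lay at 1199 to 2104 CPM and the 12 with it at 234.9 to 473.3 CPM, with no overlap. The MITF KO was 4.38-fold above the parental cells (log2 2.13 ± 0.12, limma adjusted p = 2.1e-12), and loss of MITF raised S100b by 2.38 ± 0.12 in cells lacking TFE3, 2.52 ± 0.12 in cells lacking TFEB and 1.62 ± 0.12 in cells lacking both (adjusted p = 5.1e-13, 6.1e-14 and 1.2e-10). The rise was 0.89 ± 0.17 smaller without TFE3 than with it in cells lacking TFEB (interaction adjusted p = 0.0013).

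S100a13, which takes part in the release of FGF1 from cells, was at 31.2, 34.7 and 28.1 CPM in the parental libraries and at 87.3, 88.4 and 80.6 CPM in the MITF KO. Over all lines it lay at 58.4 to 142.4 CPM in the 12 libraries without MITF and at 22.5 to 37.9 CPM in the 12 with it. The MITF KO was 2.68-fold above the parental cells (1.42 ± 0.12, limma adjusted p = 1.9e-09), and the other comparisons of MITF loss gave 1.28 to 1.93. S100a13 also rose further on loss of TFEB in the cells lacking MITF and TFE3, by 0.96 ± 0.12, or 1.95-fold, just short of 2-fold (adjusted p = 5.1e-07), and without MITF/TFE3 DKO replicate 1 it was 1.05 and passed.

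S100a16, a widely expressed member with unusually weak calcium binding, was at 13.98, 14.14 and 14.97 CPM in the parental libraries and at 49.8, 50.6 and 50.9 CPM in the MITF KO. It lay at 49.0 to 89.0 CPM in the 12 libraries without MITF and at 13.98 to 28.17 CPM in the 12 with it, and it was highest in the TKO, at 89.0, 86.9 and 84.4 CPM. The MITF KO was 3.35-fold above the parental cells (1.74 ± 0.10, limma adjusted p = 1.2e-12). Loss of MITF raised S100a16 by 1.24 ± 0.10 in cells lacking TFE3, 1.54 ± 0.10 in cells lacking TFEB and 2.24 ± 0.10 in cells lacking both, and its rise was 0.70 ± 0.14 larger without TFE3 than with it in cells lacking TFEB (adjusted p = 0.0016). S100a16 was also the member that was higher in the TFE3 KO than in the parental cells, by 0.77 ± 0.10, or 1.71-fold (adjusted p = 8.8e-06), below the 2-fold threshold.

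Of all genes, 504, or 4.2%, had all 12 libraries without MITF above all 12 with it, and 416, or 3.46%, had them all below. S100b, S100a13 and S100a16 belong to the first set. In the MITF KO, 3 of the 7 members tested were called higher (3.29% of all genes), in the MITF/TFE3 DKO 3 of 7 (3.5%), in the MITF/TFEB DKO 5 of 7 (8.78%), in the TKO 6 of 7 (8.28%) and in the TFEB/TFE3 DKO 1 of 7 (0.575%), each against the parental cells, which all 5 comparisons share. No member was called lower in them by limma or by edgeR on whole reads, where 2.99%, 2.37%, 4.94%, 6.41% and 0.383% of all genes were, in the same order. At an unadjusted p under 0.05 with no fold limit S100a10 was lower in the MITF KO and in the TFEB/TFE3 DKO, and S100a6 and S100a11 were lower in the MITF/TFE3 DKO. In the TFEB KO, S100a4 and S100a6 were more than 2-fold above the parental cells, where 0.192% of all genes were called higher and 0.591% lower. The S100a4 rise in that comparison chose the family, so this is a description. On loss of MITF, 5 of 8 were called higher in cells lacking TFE3 (5.38%), 5 of the 7 tested in cells lacking TFEB (9.32%) and 6 of 8 in cells lacking both (8.89%). None was called lower there by limma or by edgeR on whole reads (2.62%, 5.35% and 7.02% of all genes), and S100a1, in cells lacking both, was the 1 member lower at an unadjusted p under 0.05. Among these, S100a4 rose by 1.41 ± 0.09 in the cells lacking TFE3 and by 1.20 ± 0.09 in the cells lacking TFE3 and TFEB (limma adjusted p = 2.4e-11 and 1.2e-10).

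**Figure D3:**
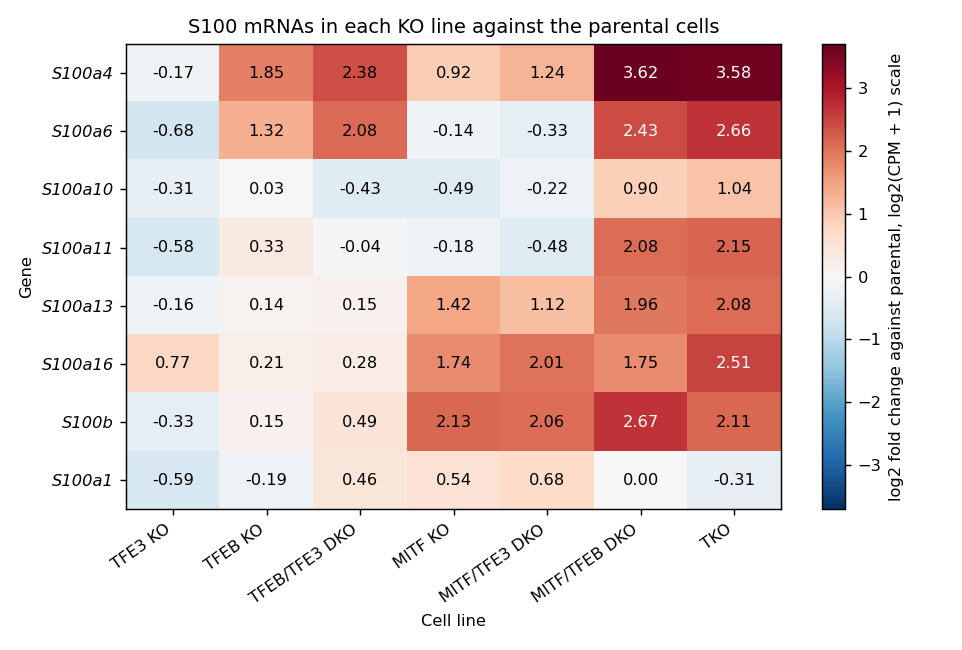
Log2 fold change, on the log2(CPM + 1) scale, of each S100 mRNA (rows) in each KO line (columns) against the parental cells, with the value printed in each cell; red is higher and blue lower. S100a4 reaches 3.62 and 3.58 in the MITF/TFEB DKO and TKO, and the values of S100a4 and of the TFEB KO column are descriptions.

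Loss of TFE3 called no member in any of 3 backgrounds, by limma or by edgeR on whole reads. All genes called higher and lower were 3.39% and 1.67% in cells lacking MITF, 0.15% and 0.0416% in cells lacking TFEB, and 0.316% and 1.98% in cells lacking MITF and TFEB. Whole separation of the 12 libraries without TFE3 from the 12 with it was seen for 0 genes upward and 1 gene, or 0.00833%, downward, and for no member. At an unadjusted p under 0.05 with no fold limit, 7 of the 23 member comparisons were higher and 6 lower. The largest difference was that of S100a16 between TKO and MITF/TFEB DKO cells, 0.77 ± 0.10 (limma adjusted p = 4.7e-06), closely followed by that of S100a6 in the TFEB/TFE3 DKO against the TFEB KO, 0.76 ± 0.09 (adjusted p = 2e-05). In the TFE3 KO against the parental cells no member was called either, where 0.366% of all genes were called higher and 1.34% lower. There 5 of the 7 members tested were lower and 1 was higher at an unadjusted p under 0.05, the lower ones being S100a1, S100a6, S100a10, S100a11 and S100b. S100a6 fell by 0.68 ± 0.09 (adjusted p = 8.9e-06), S100a11 by 0.58 ± 0.13 (adjusted p = 0.0029) and S100a1 by 0.59 ± 0.17 (adjusted p = 0.029), all less than 2-fold, and the adjusted p of S100a10 and S100b was 0.15 and 0.09.

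S100a1, best known from heart muscle, where it acts on the calcium pump and release channel, went its own way. It was at 80.3, 87.1 and 78.3 CPM in the parental libraries, at 67.8, 48.7 and 47.9 CPM in the TFE3 KO, at 121.5, 95.6 and 123.0 CPM in the TFEB/TFE3 DKO, while MITF/TFE3 DKO libraries held 134.4, 149.6 and 113.2 CPM and TKO libraries 71.3, 68.8 and 57.9 CPM. Each line overlapped the next in the order of means. Loss of TFEB raised S100a1 by 1.04 ± 0.17 in cells lacking TFE3 (limma adjusted p = 0.00016), while the difference in cells lacking MITF and TFE3 was -0.99 ± 0.17 (adjusted p = 5.3e-05), short of 2-fold. The interaction with MITF was -2.03 ± 0.25 (adjusted p = 6e-07), among the 14 member interactions past an adjusted p under 0.05. These were 4 higher and 2 lower of 8 members for TFEB loss with and without MITF (22.6% and 21.2% of all genes), 2 higher and 2 lower of 8 for TFEB loss with and without TFE3 (15.5% and 13.1%), and 1 higher and 3 lower of the 7 tested for MITF loss with and without TFE3 (4.18% and 5.54%). The call in cells lacking TFE3, at 2.06-fold, is near the threshold, and it is lost with a pseudocount of 5 CPM (0.99). It is also lost without TFE3 KO replicate 2 (0.97) or 3 (0.96) and without TFEB/TFE3 DKO replicate 1 (0.99) or 3 (0.98). The fall in the TKO passes 2-fold without MITF/TFE3 DKO replicate 3 (-1.098), TKO replicate 1 (-1.05) or TKO replicate 2 (-1.02).

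Along chromosome 3, no measured gene with a mean of at least 5 CPM lies between the 7 members: S100a13, S100a1, S100a16, S100a4, S100a6, S100a11 and S100a10 follow one another in the order of such genes, the 2879 kb stretch included. The 100 genes nearest S100a4, outside the family, span 8.34 Mb and had a median log2 difference of 0.02 on loss of TFEB in cells lacking TFE3, 0.08 in cells lacking MITF and 0.03 in cells lacking both, while S100a4 was at 2.55, 2.702 and 2.34. In the MITF/TFEB DKO and TKO against the parental cells their medians were 0.18 and 0.17. The quartiles of these neighbours on loss of TFEB were -0.224 and 0.193, -0.159 and 0.388, and -0.141 and 0.337, in the same order. Single neighbours moved as far as members. In cells lacking MITF, Adar was at 2.728 and Ecm1 at 2.340, while Car14 was at -4.656. The 100 genes nearest S100b on chromosome 10 had a median of 0.12 between MITF KO and parental cells, where S100b was at 2.13.

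**Figure D4:**
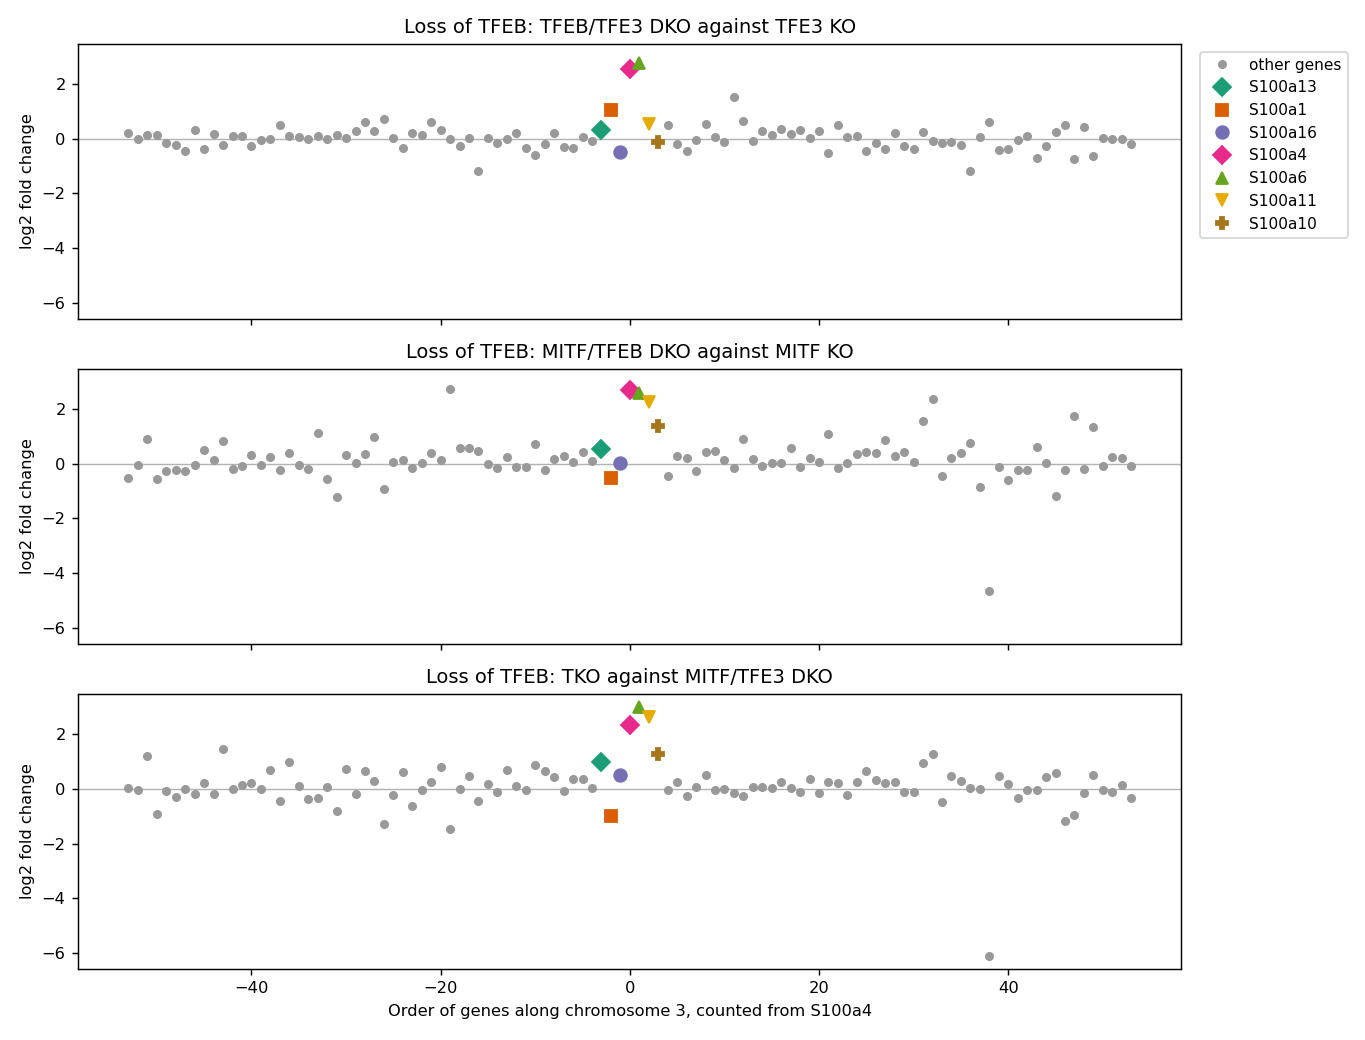
Log2 fold change on loss of TFEB in 3 backgrounds, for the 7 S100 members on chromosome 3 (coloured) and the 100 nearest genes (grey), in gene order counted from S100a4 on the x axis. S100a4 and S100a6 stand high in all 3 panels with S100a11 and S100a10 beside them in the lower 2, and the medians of the grey genes are 0.02, 0.08 and 0.03. Single grey genes lie far from these medians, such as Adar at 2.728 and Car14 at -4.656 in the middle panel.

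Known binding partners of S100 proteins and other EF-hand proteins were read in the same fit. Of 28 partners listed, 25 are in the table, and 5 were called higher and 1 lower in the TKO against the parental cells (8.28% and 6.41% of all genes), while 3 were higher and 2 lower in the MITF/TFEB DKO (8.78% and 4.94% of all genes). The median log2 difference of the list was -0.08 and -0.12 there. Anxa2, the partner of S100A10, was at 329.2 ± 21.9 CPM (SD, n = 3) in the parental cells, 989.4 ± 98.2 CPM in MITF/TFEB DKO cells and 1017 ± 25.2 CPM in TKO cells, a rise of 1.58 ± 0.14 and 1.63 ± 0.14 (limma adjusted p = 3.2e-09 and 1.8e-09). Ahnak, a giant scaffold protein that binds the S100A10 and annexin A2 complex, rose by 1.99 ± 0.16 and 1.71 ± 0.16 (adjusted p = 5e-10 and 5.7e-09). Anxa1, the partner of S100A11, fell by 1.31 ± 0.30 in the MITF/TFEB DKO (adjusted p = 0.00077) and by 1.17 ± 0.30 in the MITF KO (adjusted p = 0.0038), where S100a11 was not called, and it was not called in the TKO. Myh9, the myosin IIA heavy chain bound by S100A4, rose by 1.49 ± 0.13 on loss of TFEB in cells lacking MITF and TFE3 (adjusted p = 1.5e-09) and was not called in the other 2 backgrounds. Cacybp, the partner of S100A6, was not called in any comparison and lay at line means of 157.5 to 236.6 CPM.

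Of 27 other EF-hand proteins, such as the calmodulins, 26 are in the table. Against the parental cells 4 were called higher and 0 lower, namely Myl6, Ncs1, Capn1 and Nucb2, and this held in TKO and in MITF/TFEB DKO cells, with list medians of 0.34 and 0.24. Of all genes, 8.28% and 8.78% were called higher there. On loss of TFEB 1 of 26 was called higher and 0 lower in each background: Rcn3 in cells lacking TFE3, Ncs1 in cells lacking MITF and Nucb2 in cells lacking both, where 1.7%, 6.91% and 5.69% of all genes were called higher. The transcripts of the 3 calmodulin genes were called in none of these.

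The genes whose line means tracked S100a4 most closely, among 9538 genes with a mean of at least 5 CPM, were Scyl3 (r = 0.987), Prkdc (0.986) and Tph1 (0.965). For S100a6 they were Hmgcs1 (0.982), 1700024J04Rik (0.953) and Plec (0.942). These values describe 8 line means and carry no test. Scyl3 varied from 10.7 to 18.2 CPM and Prkdc from 5.36 to 11.04 CPM over the lines, far less than S100a4.

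The MITF/TFEB DKO and TKO, where S100a4, S100a6, S100a10 and S100a11 were all high, also differed in cell type markers. Krt14, the 1 of 3 keratinocyte markers in the table, was at 6.51 to 8.98 CPM in MITF/TFEB DKO cells and 16.1 to 19.3 CPM in TKO cells, and at 0 to 0.161 CPM in the other lines. The 2 of 5 leukocyte markers in the table summed to 3.37 to 5.12 CPM in those lines and to 0.225 to 2.62 CPM elsewhere. Of these, Lyz2 was at 0.148 CPM in the parental cells, 3.19 CPM in MITF/TFEB DKO cells and 3.26 CPM in TKO cells. Cd68 hardly differed, at 0.956, 1.09 and 0.966 CPM in the same order. Col1a1, the 1 of 4 fibroblast markers in the table, was at 6.27 to 7.84 CPM in MITF/TFEB DKO cells, at 0.989 to 2.62 CPM in TKO cells and at 0.135 to 2.45 CPM elsewhere. The defining markers Ptprc, Krt5, Pdgfra and Dcn are not in the table. The melanocyte marker sum was lower in this pair of lines, but Sox10 of that list was higher, at 731.1 CPM in the parental cells, 1053 CPM in MITF/TFEB DKO cells and 1006 CPM in TKO cells. In the same order, Tyr was at 131.4, 12.8 and 8.35 CPM, Pmel at 3771, 940.4 and 551.5 CPM and Mlana at 798.6, 248.4 and 182.5 CPM. Tyrp1 was at 2571, 1283 and 1078 CPM and Dct at 17750, 14550 and 13040 CPM. The part of these markers in the S100 values was not tested.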

How the data were processed

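Libraries were made by the authors with the QuantSeq forward 3′ kit. Per the labels' processing notes, FastQC 0.11.9, Trim Galore 0.6.5, cutadapt 2.10, STAR 2.7.8a, mm39 and edgeR were used. Not given in the sources used here are the counting tool with its strand setting, the annotation, and which filter gave 12010 genes. The authors deposited CPM divided by TMM factors, a signal whose total differs between libraries (933263 to 1081081 per library). Steps between low values gave back whole reads for at least 99.98% of the values of each library (tolerance 0.05 reads).

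Differences were computed here with limma 3.58.1 on log2(CPM + 1), with a variance trend and all 24 libraries in 1 fit of the line (16 residual degrees of freedom). A gene was called by the study's threshold, a 2-fold change with unadjusted p below 0.05, and an interaction at an adjusted p under 0.05; Benjamini-Hochberg adjustment covered all genes. Folds on this scale understate changes of low genes. edgeR 4.0.16 on the recovered reads was an alternative, with other pseudocounts, scalings, filters and left-out libraries. Both tests were run on simulated counts for the TFEB KO against the parental cells only, and no interaction was simulated. The unit was expected to be plain CPM, and the test was kept. Replicates of a line differed by more than counting noise (chi-square per degree of freedom at least 4.61).

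The members and lists were chosen with earlier results of these data known. All members are named, and partners, EF-hand proteins and markers come from fixed lists, of which called genes were picked as examples. R 4.3.3, Python 3.11.15 and matplotlib 3.10.9 were used, with GENCODE on GRCm39 for positions and RefSeq on GRCm38.p6 for promoter windows.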

Additional observations from a re-analysis of the deposited data

Results flagged for a closer look

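The following results stood out because the effect of losing 1 factor differed between backgrounds, by limma's interaction test with adjusted p over all genes. The size of each is a difference between log2 changes. Such differences were common: between backgrounds with and without MITF, the log2 change on TFEB loss was higher for 22.6% of all genes and lower for 21.2%.

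In cells lacking TFE3, the response to loss of TFEB was higher without MITF than with it by 2.08 for S100a11 (adjusted p = 2.1e-09), 1.39 for S100a10 (5.9e-06), 1.001 for S100a16 (4.1e-06) and 0.65 for S100a13 (0.0034). It was lower for S100a1, at -2.03 (6e-07), and S100b, at -0.76 (0.0012). For S100a1 and S100a16 the responses pointed in opposite directions, at 1.04 with MITF and -0.99 without it for S100a1, and at -0.49 and 0.51 for S100a16.

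In cells lacking MITF, the response to loss of TFEB was higher without TFE3 than with it for S100a16, at 0.50 (adjusted p = 0.0094), and S100a6, at 0.43 (0.01). It was lower for S100b, at -0.48 (0.043), and S100a4, at -0.37 (0.038). The last pair lost the call without MITF KO replicate 1 or 3, MITF/TFE3 DKO replicate 1 or 2, MITF/TFEB DKO replicate 1 or 2, or any 1 TKO library, with adjusted p up to 0.11 for each gene. Without MITF/TFE3 DKO replicate 1, S100a11, at 0.53, and S100a13, at 0.51, passed as well. Here 15.5% of all genes were higher and 13.1% lower.

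In cells lacking TFEB, the response to loss of MITF was higher without TFE3 than with it for S100a16, at 0.70 (adjusted p = 0.0016), and lower for S100a1, at -0.96 (0.013), S100b, at -0.89 (0.0013), and S100a6, at -0.53 (0.0064). Over all genes 4.18% were higher and 5.54% lower. S100a10, at 0.61, did not pass (adjusted p = 0.055), and passed without TFEB KO replicate 1, at 0.72, or TFEB/TFE3 DKO replicate 2, at 0.73.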

How the results depend on the processing

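Of 2227 values of 132 single member results under other settings, 2187 kept their direction and side of the threshold, 26 fell short of it, 14 newly passed it and 0 reversed. Counts of member comparisons called higher against the parental cells stayed at 18 (17 to 18 with a library left out), on loss of MITF at 16 (16 to 17), and on loss of TFEB at 10 to 11 (10 to 12). The count called lower on loss of TFEB was 0 and became 1 with edgeR on whole reads and 1 with quantile normalization, and 0 to 1 with a library left out; without MITF/TFE3 DKO replicate 3, TKO replicate 1 or TKO replicate 2 it was 1. Loss of TFE3 called 0 throughout. Interactions past the threshold numbered 12 to 16, against 14; those of S100a4 and S100b with TFE3 lost the call without the variance trend and with several libraries left out. The rises of S100a4 on loss of TFEB ran from 2.42 to 2.59, 2.64 to 2.75 and 2.29 to 2.35 under the other settings. Replicate numbers did not pair the libraries: same-numbered libraries of different lines correlated at a mean of 0.0222 (-0.66 to 0.77), and 11 of 24 correlated best with their own number. Libraries of different lines with other numbers correlated at a mean of -0.0126 (-0.762 to 0.729). These are correlations of deviations from line means, so some libraries share variation that the number does not track. A block by replicate number cannot remove it. With the replicate number as a block the counts were 18, 16 and 11 higher and 14 interactions, as without it. Members held at least 311 reads in a library; for the lowest of them, S100a16 in the parental cells, depth limits the precision, as do 3 libraries a line for all.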
